A study of Mus musculus with 12 samples.

Results

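The genes described here encode the subunits of oxidative phosphorylation that are carried in the nucleus, together with the few rows that share their names. Members were the rows of the deposited normalized expression table whose mouse symbol starts with Nduf, Uqcr, Cox4 to Cox8 or Atp5, or is Sdha, Sdhb, Sdhc or Sdhd. The rule uses names only and found 86 of the 10631 genes in that table. Alveolar macrophages, which live on the inner surface of the lung, were washed from mouse lungs by lavage, and their mRNA was sequenced to compare cells with and without the vitamin D receptor (VDR) and with and without its ligand. There were 6 groups of 2 libraries each. Wild-type (WT) cells were cultured for 24 h in complete RPMI medium with 50 nM vitamin D3 (VD3) or without it. Fresh cells were taken from VDR knockout (KO) and WT mice at 10 weeks of age, and from KO and WT mice at 4 weeks of age. The labels give neither the strain, the Vdr allele and the sex of the mice, nor the age of the donors of cultured cells, nor whether a group's libraries are from different animals, so the p-values reflect only how much these libraries vary.

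Oxidative phosphorylation passes electrons from NADH and succinate along complexes I to IV of the inner mitochondrial membrane to oxygen, and the proton gradient they build drives ATP synthase, complex V. Nearly all of the subunits are encoded in the nucleus, and a small core set of complexes I, III, IV and V is encoded in mitochondrial DNA. Alveolar macrophages live in an oxygen-rich, lipid-rich space and are known to rely on oxidative metabolism more than on glycolysis. By known role the 86 members were 36 subunits of complex I (7 of the conserved catalytic core and 29 accessory ones), 4 of complex II, 8 of complex III, 13 of complex IV and 15 of complex V. A further 7 (Ndufaf1 to Ndufaf7) were complex I assembly factors. The last 3 were Cox7a2l, a factor that joins complexes III and IV into supercomplexes, and Atp5s and Atp5sl, which match the pattern by name and are not subunits. The subunits encoded in mitochondrial DNA were not analysed here.

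Total counts ranged from 10409572 to 23233674 per library, so that 1 count was worth 0.0904 CPM (counts relative to library size, after scaling) or less, and all 86 members passed the filter on low counts that left 12748 genes. The libraries labelled KO still held Vdr, at 84.2 and 45.0 CPM at 10 weeks and 45.9 and 31.2 CPM at 4 weeks, against 79.6 and 127 CPM and 56.5 and 57.7 CPM in WT, and a short code among the labels contradicts the genotype of 1 library of each genotype at 10 weeks. Which exons the allele removes is not stated in the labels, so that Vdr counts check them only in part. The female transcript Xist was at 787 CPM or more in replicate 2 of both genotypes at 10 weeks and at most 0.926 CPM in the other 10 libraries. Numbers in the library titles fall into 2 series, called 10 and 58 here after their first digits. Replicate 1 of both 10-week groups and of both culture groups belonged to series 10, and the other 8 libraries to series 58. Alveolar macrophage markers (11 of 12 found) summed to between 12141 and 43388 CPM, with Itgax and Mrc1 at no less than 1019.8 and 1128 CPM in any library, while Car4 was at 0.657 and 0.972 CPM in untreated culture, against 265 and 216 CPM at 10 weeks and 602 and 618 CPM at 4 weeks in fresh WT cells.

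Subunits of complexes IV and V were the most abundant transcripts for their length. The median level over all libraries, in CPM per 1000 bases of transcript (CPM per kb), was 55.3 for complex I, 94.0 for complex II, 114 for complex III, 170.3 for complex IV and 168 for complex V. It was 7.23 CPM per kb for the 7 assembly factors. Atp5b, the catalytic beta subunit of ATP synthase, was highest at 415 CPM per kb, followed by Cox4i1, a regulatory subunit of complex IV, at 372 CPM per kb. The highest in the other complexes were Uqcrq of complex III at 164, Sdhb of complex II at 102 and Ndufb8 of complex I at 101 CPM per kb. The lowest true subunit was Cox7a1, the heart and muscle isoform of Cox7a, at 3.98 CPM per kb, against 100.3 CPM per kb for the widely expressed Cox7a2. Cox6b2, known as the testis isoform of Cox6b, averaged 34.6 CPM per kb and its widely expressed partner Cox6b1 215 CPM per kb. Of the 3 genes that encode an identical c subunit of the ATP synthase ring, Atp5g2 and Atp5g3 were at 305 CPM per kb each and Atp5g1 at 126 CPM per kb. Exons of 23 of the 86 members share bases with another gene, and how reads that map to processed pseudogenes were counted is not stated. Pattern genes that the normalized table does not list were near or at 0 in the raw counts. Cox8b, Cox8c, Cox7b2 and Ndufa4l2, isoforms of muscle, testis or hypoxia, had 0 counts in every library, which allows up to 3 counts per library. Cox4i2, the isoform of Cox4 induced in lung, had 0 to 3 counts per library, and Cox6a2, the muscle isoform of Cox6a, had 2 to 15.

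The members moved as a block in culture. In untreated cultured WT cells, against fresh WT cells of both ages, 61 of the 86 members were higher and 3 lower (edgeR quasi-likelihood test, adjusted p under 0.05), whereas 23.5% of all tested genes were higher and 22.3% lower. The median member log2 fold change was 0.47, against -0.02 over all tested genes, and 81 of 86 were positive. The summed level of all 86 was 7999 and 9623 CPM in untreated culture, against 5950 and 6675 CPM in fresh WT at 10 weeks and 7269 and 6888 CPM in fresh WT at 4 weeks, a ratio of 1.32. Each untreated culture thus stood above each of the 4 fresh WT libraries, and 59 single members also did so without overlap, against 28.2% of all genes. In bulk RNA a change in the RNA of each cell and a change in the share of cells of a type cannot be told apart, and neither can culture and the unstated age of the donors.

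**Figure D1:**
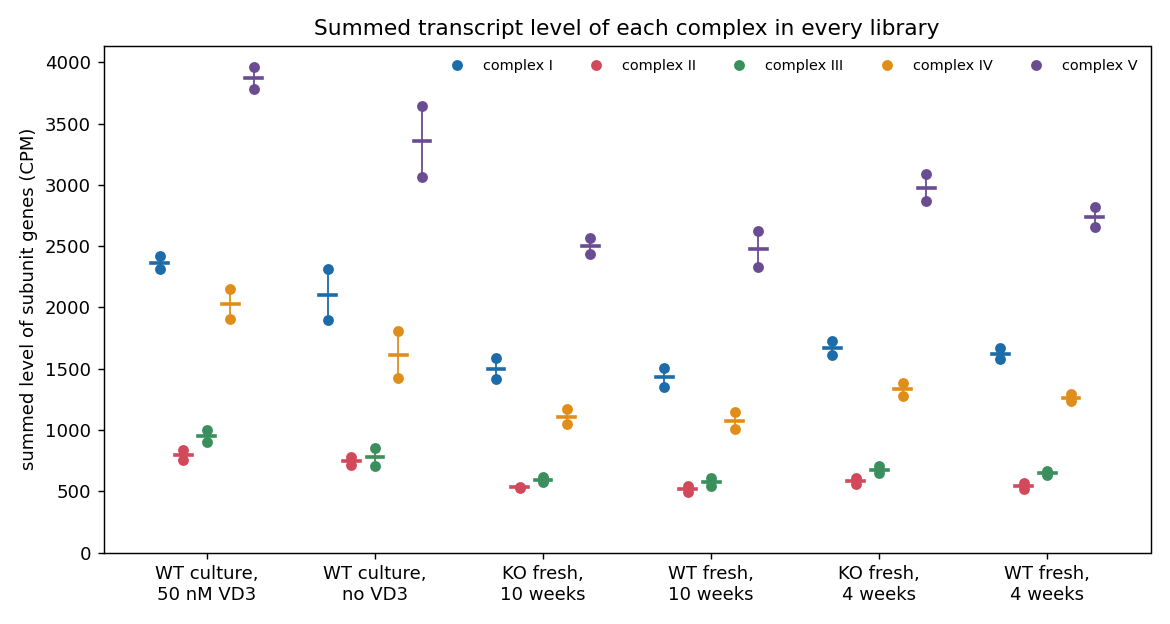
Summed level (CPM) of the subunit genes of each complex in every library (points), with the group mean (thick bar) and the range (thin line), cultures on the left. The 2 untreated cultures lie above all 4 fresh WT libraries for every complex, KO 4-week replicate 2 reaches untreated replicate 1 for complexes III and V, and complex V is highest in every library.

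The size of this shift depends on the scaling. Trimmed-mean (TMM) scaling raised cultured values relative to plain library totals. The 10 most abundant genes took 14.1 to 15.3% of counts in the 4 cultures and 8.29 to 11.6% in the 8 fresh libraries. The part of these genes in the difference between the scalings was not tested. With library totals alone the median over all tested genes moved to -0.31 and that of the members to 0.18, and 21 members were higher and 4 lower. The share of all tested genes called in this fit is not given here. The member median exceeded the median of all genes by 0.49 under both scalings. A change of scaling moves all genes by nearly the same amount, so this gap could hardly differ. By complex, library totals left 10 of 36 higher in complex I, 1 of 4 in II, none in III, where 1 was lower, 5 of 13 in IV and 4 of 15 in V, with every median still positive.

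Every complex contributed. In complex I, the NADH dehydrogenase, 28 of 36 subunits were higher and none lower, with a median log2 fold change of 0.50. The core subunit Ndufs8 was among those that did not pass. Ndufb7, an accessory subunit of the membrane arm, had 68.5 and 93.7 CPM in untreated culture, against 36.1 and 39.8 CPM at 10 weeks and 50.5 and 40.8 CPM at 4 weeks in fresh WT. Both cultures lay above all 4 fresh libraries, and the log2 fold change was 0.96 ± 0.14 (SE, edgeR adjusted p = 0.000147). Ndufb8, another membrane-arm subunit, rose by 0.77 ± 0.10 on the log2 scale (SE, edgeR adjusted p = 7.91e-05), and shares 134 exonic bases with the predicted gene Gm20538.

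In complex II, succinate dehydrogenase, all 4 subunits were higher. Sdhb, the iron-sulfur subunit, was at 158 and 175 CPM in untreated culture, against 74.4 and 84.4 CPM at 10 weeks and 94.3 and 77.9 CPM at 4 weeks in fresh WT. It was thus clearly apart in both cultures, with a 2.02-fold difference (log2 1.01 ± 0.10, SE, edgeR adjusted p = 9.62e-06). Sdha, the flavoprotein subunit, showed the smallest change, 0.32 ± 0.09 on the log2 scale (SE, edgeR adjusted p = 0.00952), and with library totals it no longer passed (log2 0.03, edgeR adjusted p = 0.769). Sdhc, a membrane anchor, changed by 0.52 ± 0.10 (SE, edgeR adjusted p = 0.00107), which library totals reduced to 0.23 (edgeR adjusted p = 0.0688).

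In complex III, the cytochrome bc1 complex, 6 of 8 were higher and none was lower. Uqcrq, a small subunit, had the largest value, 0.61 ± 0.17 on the log2 scale (SE, edgeR adjusted p = 0.0108), although its cultures overlapped fresh WT at 4 weeks. Uqcrc1, a core-protein subunit, was higher by 0.39 ± 0.08 (SE, edgeR adjusted p = 0.00170) and Uqcrb, a small subunit near the quinone site, by 0.44 ± 0.12 (SE, edgeR adjusted p = 0.00894). With library totals Uqcrc1 and Uqcrb were at 0.10 (edgeR adjusted p = 0.328) and 0.15 (edgeR adjusted p = 0.29). Uqcrfs1, the Rieske iron-sulfur protein and a catalytic subunit of this complex, was the only member of its complex with a negative value, at 82.8 and 92.5 CPM in untreated culture, against 78.8 and 86.6 CPM and 105 and 101 CPM in fresh WT at 10 and 4 weeks. These ranges overlapped, and its log2 fold change was -0.07 ± 0.10 (SE, edgeR adjusted p = 0.564). With library totals it was -0.36 and passed (edgeR adjusted p = 0.00943).

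In complex IV, cytochrome c oxidase, 9 of 13 were higher and 1 lower. Cox7a2 was at 73.6 and 90.5 CPM in untreated culture, against 43.0 and 44.8 CPM and 48.3 and 55.6 CPM in fresh WT at 10 and 4 weeks, and Cox7b, another small structural subunit, rose by a similar 0.72 ± 0.11 on the log2 scale (SE, edgeR adjusted p = 0.000224). The log2 fold change of Cox7a2 was 0.78 ± 0.10 (SE, edgeR adjusted p = 7.60e-05). The exception was Cox6b2, at 8.65 and 7.45 CPM in untreated culture, against 23.7 and 23.3 CPM at 10 weeks and 23.5 and 18.2 CPM at 4 weeks in fresh WT. Both cultures lay below every fresh library, a log2 fold change of -1.45 ± 0.17 (SE, edgeR adjusted p = 2.58e-05). Its partner Cox6b1 was at 145 and 192 CPM, against 97.6 and 112 CPM and 123 and 109 CPM in fresh WT at 10 and 4 weeks, and was among the 9 that rose (log2 fold change 0.61 ± 0.12, SE, edgeR adjusted p = 0.00164). Cox4i1, Cox8a and Ndufa4, the ubiquitous members of their isoform families, rose by 0.55, 0.44 and 0.60 on the log2 scale, while Cox6a1 had 0.19 and did not pass (edgeR adjusted p = 0.163).

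In complex V, 12 of 15 were higher, 8 of the 9 in the membrane Fo sector and 3 of the 5 in the catalytic F1 sector. Atp5l, the g subunit of the Fo sector, was at 111 and 151 CPM in untreated culture, against 62.9 and 71.9 CPM and 75.6 and 66.4 CPM in fresh WT at 10 and 4 weeks. Its log2 fold change was 0.92 ± 0.14 (SE, edgeR adjusted p = 0.000184), and it shares 133 exonic bases with Gm30934 on the opposite strand. Atp5j2, the f subunit, changed by 0.74 ± 0.11 (SE, edgeR adjusted p = 0.000229). Atp5b was at 748 and 874 CPM, against 667 and 756 CPM and 802 and 742 CPM in fresh WT at 10 and 4 weeks, so that the groups overlapped. The c-subunit genes Atp5g1 and Atp5g3 rose by 0.50 and 0.32 on the log2 scale, and Atp5g2 had 0.20 (edgeR adjusted p = 0.000745, 0.0377 and 0.227). The log2 fold change of Atp5b was 0.13 ± 0.09 (SE, edgeR adjusted p = 0.267) and -0.16 with library totals.

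**Figure D2:**
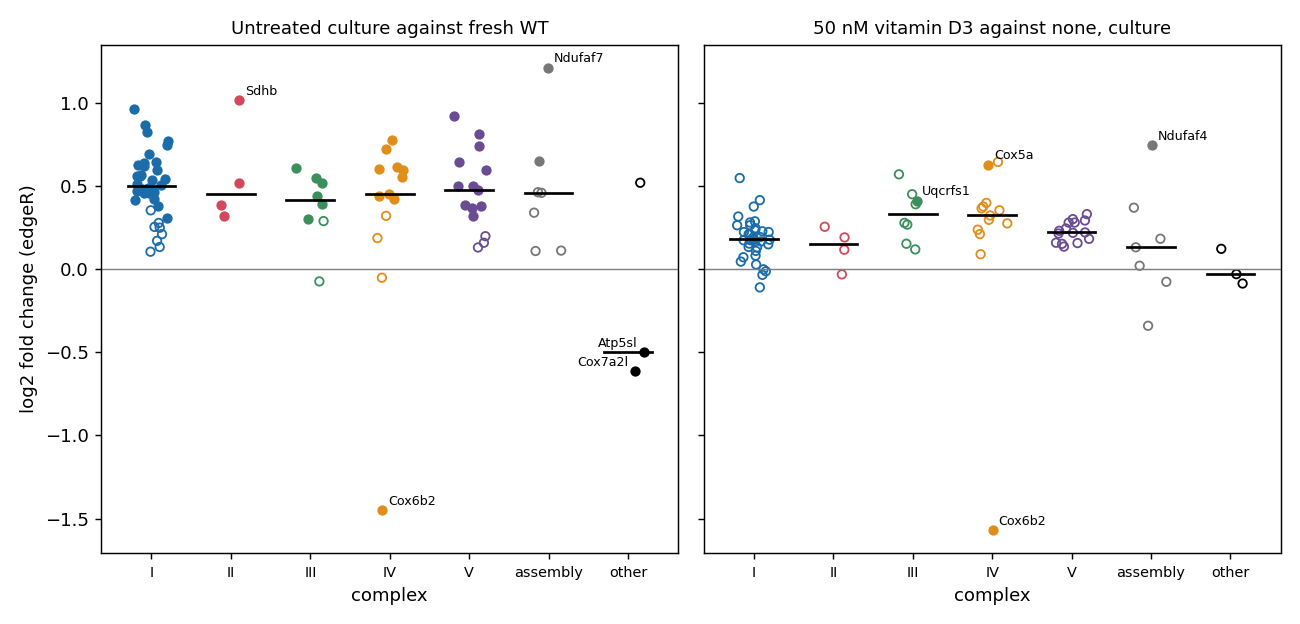
Log2 fold change (edgeR) of each member, by complex, for untreated culture against fresh WT (left) and for 50 nM vitamin D3 against none in culture (right). Filled points passed the adjusted p threshold, open points did not, and the black bar is the median of each complex. In culture 61 points are filled above 0 and 3 below, and with vitamin D3 3 above and 1 below.

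Of the 7 assembly factors 2 were higher. Ndufaf7, a methyltransferase, was at 17.3 and 21.0 CPM in untreated culture, against 9.35 and 10.2 CPM and 4.75 and 9.03 CPM in fresh WT at 10 and 4 weeks. This was the largest positive change among the members, 1.21 ± 0.22 on the log2 scale (SE, edgeR adjusted p = 0.000869). Ndufaf3 changed by 0.65 ± 0.21 (SE, edgeR adjusted p = 0.0239), a call that 6 of 17 alternatives did not make. Ndufaf5, in human cells a hydroxylase of the Ndufs7 protein, had 8.48 and 8.99 CPM, against 7.04 and 8.55 CPM and 7.96 and 8.88 CPM in fresh WT at 10 and 4 weeks, a log2 fold change of 0.11 that was -0.18 with library totals. Of the 3 rows that are not subunits, Cox7a2l and Atp5sl fell. Cox7a2l was at 99.6 and 112 CPM, against 149 and 156 CPM and 166 and 176 CPM in fresh WT at 10 and 4 weeks (log2 fold change -0.61 ± 0.10, SE, edgeR adjusted p = 0.000347). The supercomplex factor was thus lower in both cultures than in any fresh library, while most subunits of the complexes it joins were higher. Atp5sl changed by -0.50 ± 0.11 (SE, edgeR adjusted p = 0.00294).

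**Figure D3:**
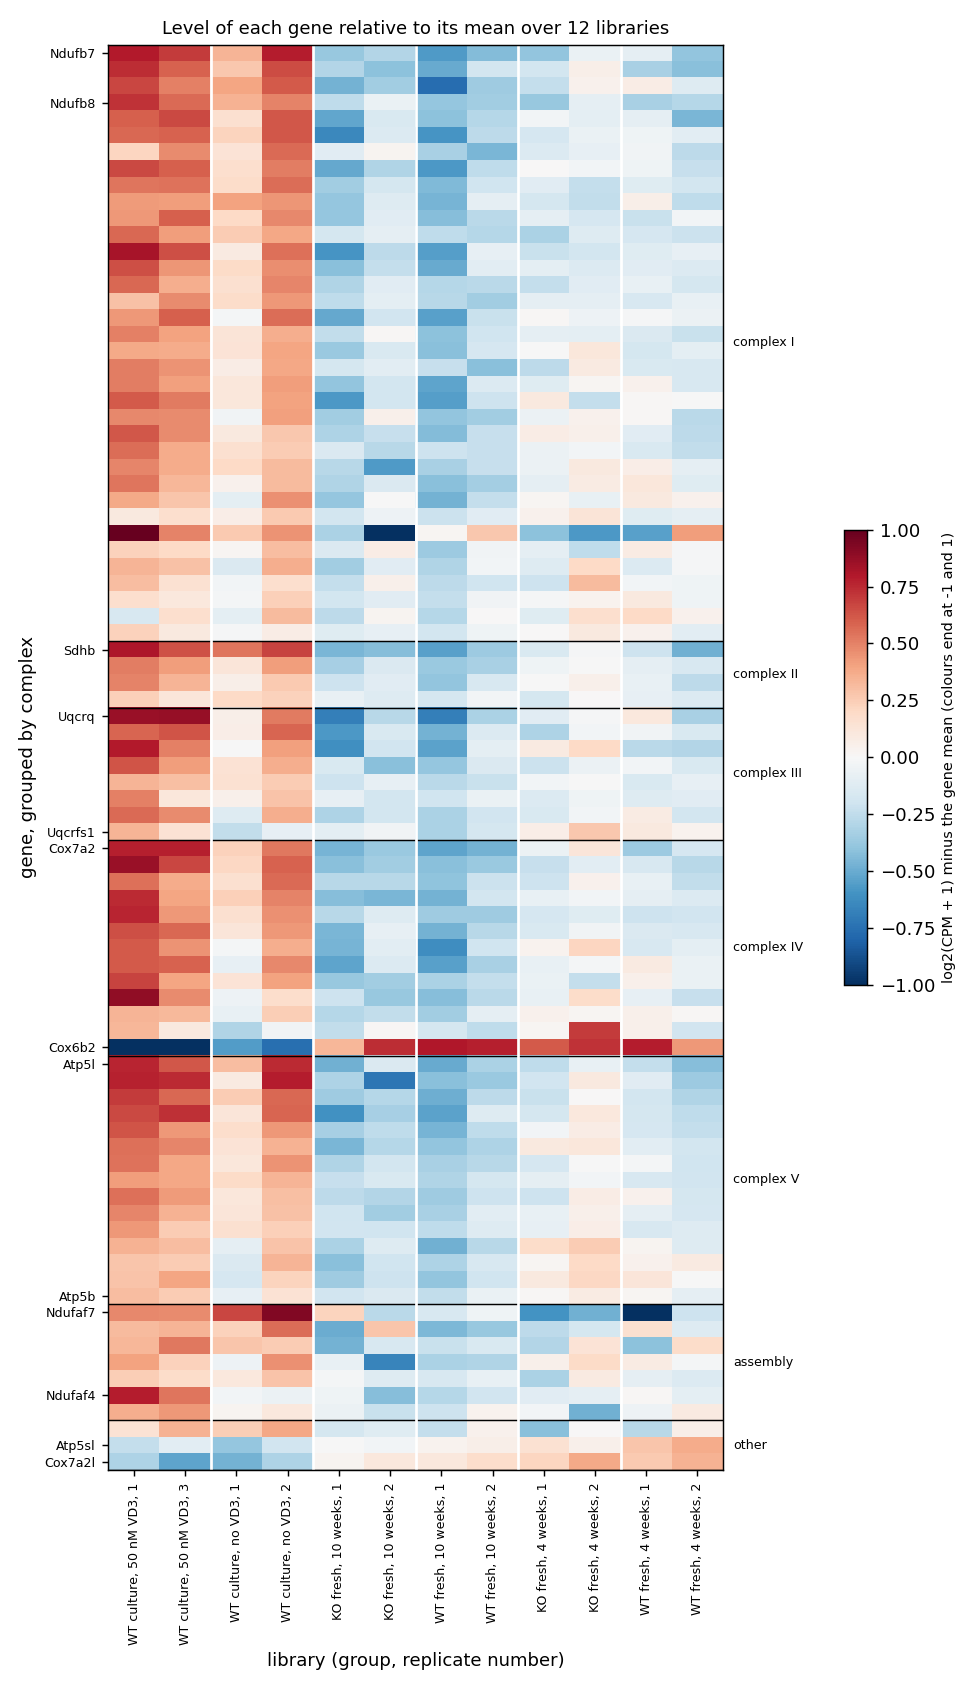
Level of each of the 86 members in every library, as log2(CPM + 1) minus the mean of the gene over the 12 libraries, in rows grouped by complex and sorted by the culture change; red is above and blue below the mean of the gene, colours end at -1 and 1, and some of the rows are labelled. The 4 cultures are red for most rows, with Cox6b2, Cox7a2l and Atp5sl the other way, and untreated replicate 1 is paler than replicate 2.

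The shift was present in each title series. Untreated culture against fresh WT at 10 weeks gave a median of 0.50 in series 10, with 82 of 86 members higher, and 0.58 in series 58, with 83 higher. In series 58 the fresh library held Xist at 800 CPM and the untreated culture at 0 CPM, so that culture and sex cannot be told apart there. Its size differed between the untreated cultures themselves, since replicate 2 exceeded replicate 1 in 83 of 86 members, by a median of 0.28. Without untreated replicate 2, 37 members passed, 34 of them higher. Against fresh WT at 10 weeks alone 65 members passed and against fresh WT at 4 weeks alone 45, of which 62 and 42 were higher. The shares of all tested genes called in these fits are not given here.

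Cell type markers moved with this comparison. Of 11 alveolar macrophage markers 6 were lower and 2 higher, with a sum of 12437 to 12484 CPM in untreated culture, against 23550 to 24159 CPM at 10 weeks and 26848 to 29552 CPM at 4 weeks in fresh WT. Lung epithelial markers (7 of 7 found) summed to 10.2 to 13 CPM in untreated culture, against 179 to 221 CPM in fresh WT at 10 weeks and 44.1 to 88.5 CPM at 4 weeks. Erythroid markers (5 of 5 found) summed to 0.602 to 1.86 CPM in untreated culture, with Hbb-b1 at 0 CPM, against 51.7 to 56.9 CPM and 1039 to 2564 CPM in fresh WT at 10 and 4 weeks. Dendritic cell markers (6 of 6) summed to 18.9 to 22.4 CPM, against 47.9 to 71.0 CPM and 33.6 to 97.7 CPM at those ages. T cell markers (5 of 6) summed to 218 to 225 CPM, against 238 to 252 CPM and 184 to 208 CPM, of which Cd2 made up nearly all, with Cd3e, Cd3d and Cd3g at no more than 1.35, 1.26 and 1.03 CPM in any library. B cell markers (4 of 4) reached at most 5.31 CPM in any library, neutrophil markers (5 of 5) 22.1 CPM and muscle markers (6 of 6) 0.634 CPM. The part of these cells in the result was not tested. Short transcripts as a whole also shifted. Among genes with transcripts under 1000 bases, the 52 members had a median log2 fold change of 0.52 with 71.2% higher, and the 773 other tested genes a median of 0.19 with 33.4% higher.

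Other genes of mitochondrial energy metabolism were counted in the same way, where 23.5% of all tested genes were higher and 22.3% lower. In untreated culture against fresh WT, 11 of 33 other assembly factors were higher and none lower, 28 of 76 mitochondrial ribosomal proteins were higher and 1 lower, and 12 of 25 genes of the tricarboxylic acid cycle and pyruvate oxidation were higher and 4 lower. Cox10, which makes heme A for complex IV, had a log2 fold change of 1.15 ± 0.12 (SE, edgeR adjusted p = 1.02e-05), and Mpc1, a subunit of the mitochondrial pyruvate carrier, one of 1.53 ± 0.10 (SE, edgeR adjusted p = 4.52e-07). Atpif1, the inhibitor of ATP synthase, was at 108 and 116 CPM in untreated culture, against 52.6 and 46.7 CPM and 59.0 and 45.0 CPM in fresh WT at 10 and 4 weeks. Of 19 carriers and related genes 7 were higher and 1 lower. Of 20 genes of glycolysis 14 were higher and 3 lower, with a median of 0.90, and Pgam1, Aldoc and Pfkl changed by 2.69, 2.34 and 2.30 on the log2 scale. Of 16 tested regulators of mitochondrial biogenesis 1 was higher and 3 lower. With library totals, 5 assembly factors were higher and 8 lower, and 5 genes of the tricarboxylic acid cycle group were higher and 7 lower. There were 3 carriers higher and 4 lower, 1 regulator higher and 8 lower, and 10 mitochondrial ribosomal proteins higher and 8 lower. Glycolysis kept 12 higher and 3 lower. The share of all tested genes called in this fit is not given here, so these counts are no measure of excess over all genes. Nrf1, the transcription factor that binds many promoters of respiratory genes, was lower by 0.72 ± 0.10 on the log2 scale in untreated culture (SE, edgeR adjusted p = 0.000108), at 16.5 and 18.4 CPM, against 30.8 and 28.9 CPM and 28.0 and 27.2 CPM in fresh WT at 10 and 4 weeks. Ppargc1b, a coactivator of mitochondrial genes, changed by -1.13 ± 0.22 (SE, edgeR adjusted p = 0.00145), while Hif1a, the hypoxia factor that favours glycolysis, changed by 0.68 ± 0.11 (SE, edgeR adjusted p = 0.000309).

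The promoters of the members were searched for sequences known from nuclear respiratory genes, as a description of these genes. Whether members with and without such a sequence differed in their change was not tested. RefSeq promoters of GRCm38.p6, which run from 250 bases before to 50 bases after the start of the gene, were matched for 74 of the 86 members. The core of the motif bound by NRF1, searched on both strands with 1 free base in it, was in 19 of 74 member promoters (25.7%). It was in 7.17% of the 17491 protein-coding genes of the promoter table and in 11.4% of its tested genes of any type. The ETS core ACTTCCGG, bound by the GABP factors and searched on both strands, was in 5 of 74 (6.76%), against 5.69% and 9.08% of these same sets of genes. Neither core contains the other. The promoters shown are those of the holders of the NRF1 core with the smallest p in culture for complexes I, II, III and V, and those of Ndufaf4 and Cox6b2, which passed with vitamin D3 in opposite directions. Ndufs6 lies at chr13:73328433-73328732 (minus strand), Sdhd at chr9:50603800-50604099 (minus strand), Uqcrc1 at chr9:108936398-108936697 (plus strand), Atp5h at chr11:115419870-115420169 (minus strand), Ndufaf4 at chr4:24897833-24898132 (plus strand) and Cox6b2 at chr7:4753045-4753344 (minus strand). Capitals mark the NRF1 core and, in Atp5h, also the ETS core.
Ndufs6: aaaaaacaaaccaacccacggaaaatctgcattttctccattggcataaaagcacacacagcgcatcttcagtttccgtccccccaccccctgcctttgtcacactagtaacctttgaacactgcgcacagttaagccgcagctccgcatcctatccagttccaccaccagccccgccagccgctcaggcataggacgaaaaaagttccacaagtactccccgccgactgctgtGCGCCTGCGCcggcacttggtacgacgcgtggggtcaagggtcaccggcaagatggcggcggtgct
Sdhd: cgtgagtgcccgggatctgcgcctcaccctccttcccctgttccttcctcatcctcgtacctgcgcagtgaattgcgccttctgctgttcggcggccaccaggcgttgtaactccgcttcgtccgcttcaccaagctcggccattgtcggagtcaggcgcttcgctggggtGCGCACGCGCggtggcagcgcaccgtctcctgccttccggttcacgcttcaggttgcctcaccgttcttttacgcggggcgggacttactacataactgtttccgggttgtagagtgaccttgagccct
Uqcrc1: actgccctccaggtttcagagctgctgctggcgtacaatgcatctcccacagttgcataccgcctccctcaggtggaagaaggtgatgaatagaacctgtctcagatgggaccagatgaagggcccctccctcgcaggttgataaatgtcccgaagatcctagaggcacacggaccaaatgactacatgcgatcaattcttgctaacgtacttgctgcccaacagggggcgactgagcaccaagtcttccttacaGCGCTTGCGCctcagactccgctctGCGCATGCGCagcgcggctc
Atp5h: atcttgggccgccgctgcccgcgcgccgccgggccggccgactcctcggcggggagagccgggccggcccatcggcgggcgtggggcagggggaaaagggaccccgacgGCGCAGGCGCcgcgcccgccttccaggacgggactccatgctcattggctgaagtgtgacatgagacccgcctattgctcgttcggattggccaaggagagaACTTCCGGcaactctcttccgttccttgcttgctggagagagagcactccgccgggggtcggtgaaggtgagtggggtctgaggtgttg
Ndufaf4: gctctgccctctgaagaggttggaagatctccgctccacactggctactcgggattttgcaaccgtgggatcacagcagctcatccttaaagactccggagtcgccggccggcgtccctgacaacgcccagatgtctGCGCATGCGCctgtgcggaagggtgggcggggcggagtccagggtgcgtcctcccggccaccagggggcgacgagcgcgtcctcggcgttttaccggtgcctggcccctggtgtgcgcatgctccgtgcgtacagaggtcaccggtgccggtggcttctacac
Cox6b2: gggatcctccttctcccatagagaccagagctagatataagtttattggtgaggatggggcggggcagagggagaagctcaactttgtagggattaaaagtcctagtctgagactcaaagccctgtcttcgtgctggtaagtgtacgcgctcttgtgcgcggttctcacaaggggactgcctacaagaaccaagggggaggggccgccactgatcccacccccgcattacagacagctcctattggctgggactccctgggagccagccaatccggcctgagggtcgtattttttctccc
Uqcrc1 holds 2 NRF1 cores near its start, Ndufaf4 holds 1, and the Cox6b2 window holds neither sequence. The promoters of Cox5a and Uqcrfs1, which were also higher with vitamin D3, hold neither sequence and are not shown. A match is a description of letters and says nothing of binding in these cells.

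With vitamin D3, few members passed, and the member that fell did so further than any other changed. Vdr itself was at 72.1 and 42.4 CPM with vitamin D3, against 7.82 and 7.61 CPM without. Against untreated culture, 3 of 86 members were higher (Cox5a, Ndufaf4 and Uqcrfs1) and 1 was lower (Cox6b2), while 5% of all tested genes were higher and 5.63% lower. The share of members called was thus below that of all genes, 10.6%. Their median log2 fold change was 0.21, against 0.00 over all tested genes, and 76 of 86 were positive, 41 of them without overlap between the groups, against 24.2% of all genes. Of 11 alveolar macrophage markers 3 were higher and 3 lower, with a sum of 12141 to 14048 CPM with vitamin D3, against 12437 to 12484 CPM without. T cell markers summed to 122 to 136 CPM, against 218 to 225 CPM without, nearly all of it Cd2, and neutrophil markers to 9.34 to 11.6 CPM, against 16.0 to 22.1 CPM without. Lung epithelial, dendritic cell and erythroid markers reached at most 13, 23.7 and 1.86 CPM in any culture, and the part of these cells in the result was not tested.

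Cox6b2 was at 2.75 and 2.67 CPM with vitamin D3, against 8.65 and 7.45 CPM without it. Both treated cultures lay well below both untreated ones, a log2 fold change of -1.57 ± 0.21 (SE, edgeR adjusted p = 0.000634). It was called in all 13 alternatives tried. Cox6b1 was at 191 and 168 CPM with vitamin D3, against 145 and 192 CPM without, and the groups overlapped.

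Cox5a, a subunit on the matrix side of complex IV, was at 321 and 240.1 CPM with vitamin D3, against 168 and 196 CPM without. All values with vitamin D3 were higher, and the log2 fold change was 0.63 ± 0.15 (SE, edgeR adjusted p = 0.0212). Its exons share 269 bases with Gm26631 on the opposite strand, and whether the counting used strand is not stated. Ndufaf4, a complex I assembly factor, was at 26.1 and 21.9 CPM with vitamin D3, against 14.5 and 14.2 CPM without, and at 10.8 to 14.9 CPM in all 8 fresh libraries. Its log2 fold change was 0.75 ± 0.16 (SE, edgeR adjusted p = 0.0117). Uqcrfs1 was at 124 and 109 CPM with vitamin D3, against 82.8 and 92.5 CPM without (log2 fold change 0.41 ± 0.11, SE, edgeR adjusted p = 0.0378). Cox5a, Ndufaf4 and Uqcrfs1 had not passed between untreated culture and fresh WT, a comparison that shares the untreated cultures with this one. Cox5a and Uqcrfs1 lost their call without vitamin D3 replicate 1 and without untreated replicate 1 (edgeR adjusted p up to 0.227 and 0.294), and Ndufaf4 lost it in these fits and without untreated replicate 2 (edgeR adjusted p up to 0.131).

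**Figure D4:**
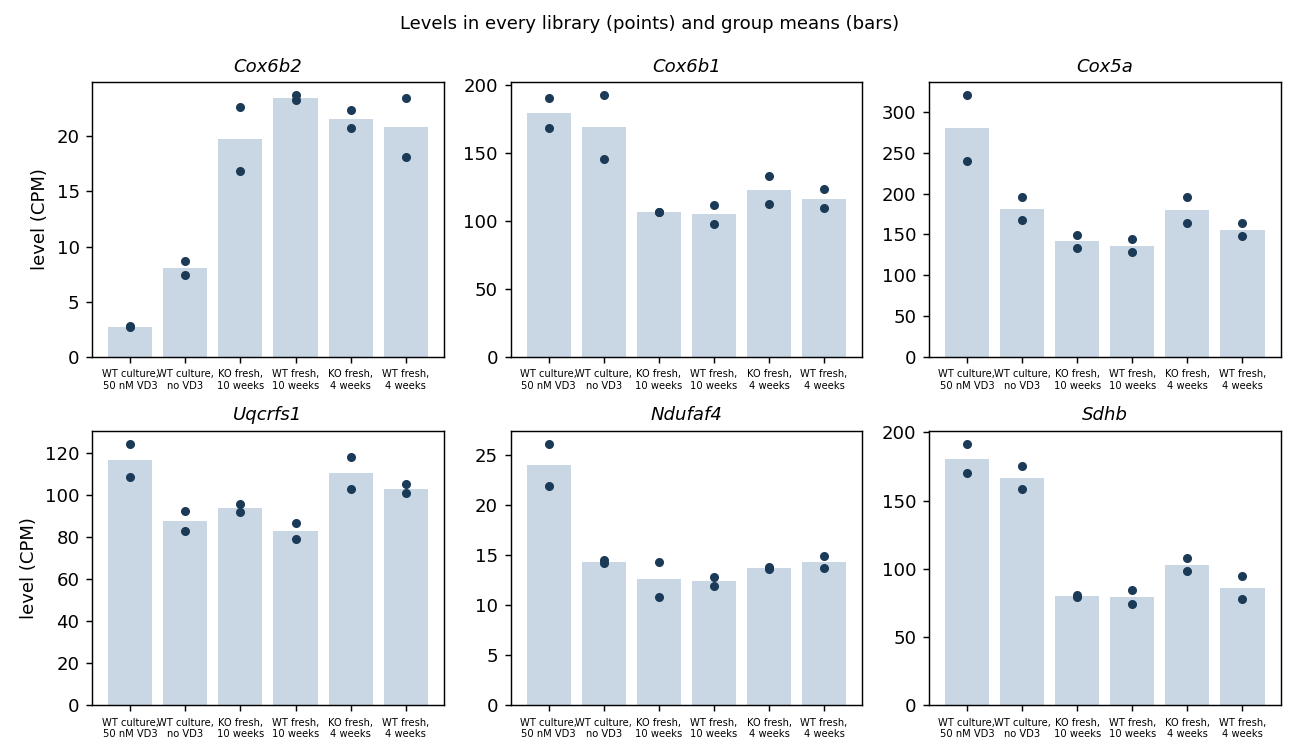
Level (CPM) of 6 members in each library (points) with the group mean (bar). Cox6b2 is lowest with vitamin D3 and highest in fresh cells, Cox5a, Uqcrfs1 and Ndufaf4 are higher with vitamin D3 than without, and Sdhb is higher in all 4 cultures than in any fresh library.

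The size of the general shift depended on which untreated library was used. In title series 10, where treated and untreated cells carry the same replicate number, 82 of 86 members were higher with vitamin D3, with a median of 0.44. In series 58, where the cultures carry different numbers and are no pair by their labels, 47 were higher and 39 lower, with a median of 0.03. The summed level was 10585 CPM with vitamin D3 and 7999 CPM without in series 10, and 9869 CPM with and 9623 CPM without in series 58. Untreated replicate 1 was thus the lowest of the 4 cultures, and without it the median was 0.07. By complex the medians were 0.39 in series 10 and 0.01 in series 58 for complex I, 0.33 and -0.02 for complex II, 0.55 and 0.08 for complex III, 0.56 and 0.08 for complex IV and 0.44 and 0.02 for complex V. Cox6b2 moved alike in both, by -1.61 and -1.44, whereas Cox5a differed by 0.94 and 0.29.

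**Figure D5:**
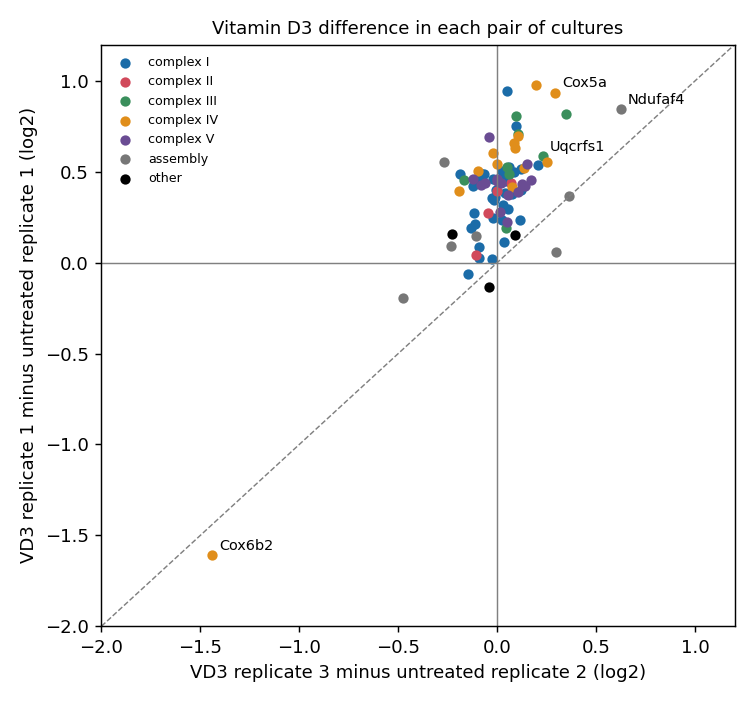
Log2 difference of each member between a vitamin D3 culture and an untreated one, for title series 58 (x axis) and title series 10 (y axis), coloured by complex; the dashed line marks equal differences. Most points lie above 0 on the y axis and around 0 on the x axis, and Cox6b2 is near -1.5 on both.

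Among the members that did not pass with vitamin D3, Uqcrq, a small subunit of complex III, was at 114 and 115 CPM, against 64.8 and 89.9 CPM without, a log2 fold change of 0.57 ± 0.19 (SE, edgeR adjusted p = 0.0894). Uqcrq passed in 5 of 13 alternatives, among them the replicate block (edgeR adjusted p = 0.0337), over which its edgeR, DESeq2 or limma adjusted p ranged from 0.000475 to 0.44. With that block Cox7a2 passed too (log2 difference 0.41, edgeR adjusted p = 0.0333). Cox7a1 had the highest value in complex IV, 0.64 ± 0.47 (SE, edgeR adjusted p = 0.465), at no more than 2.16 CPM in any culture. Ndufs5, an accessory subunit, had the highest of complex I, 0.55 ± 0.34 (SE, edgeR adjusted p = 0.378). The lowest values were -0.11 for Ndufa6 in complex I, -0.03 for Sdha in complex II and -0.34 for Ndufaf7 among assembly factors, with edgeR adjusted p of 0.786, 0.897 and 0.486. In complex V the range was narrow, between 0.14 for Atp5a1 and 0.33 for Atp5e. In complex II the highest was Sdhd at 0.25 and in complex III the lowest Uqcrc1 at 0.12. Atp5sl and Atp5s, which are not subunits, had 0.12 and -0.09.

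Genes next to the respiratory chain were counted in the same comparison with vitamin D3, where 5% of all tested genes were higher and 5.63% lower. Of 25 genes of the tricarboxylic acid cycle and pyruvate oxidation 5 were higher and none lower. Pdk4, the kinase that inhibits pyruvate dehydrogenase, was at 17.9 and 10.5 CPM with vitamin D3, against 2.41 and 2.51 CPM without (log2 fold change 2.54 ± 0.32, SE, edgeR adjusted p = 0.000451). Idh3a and Mdh2, enzymes of the cycle, and Mpc1 changed by 0.58, 0.48 and 0.58 (edgeR adjusted p = 0.00571, 0.0107 and 0.0108). Of 16 regulators, Hif1a and Ppargc1b were higher and none lower. Hif1a was at 519.6 and 386 CPM, against 162 and 149 CPM without (log2 fold change 1.54 ± 0.13, SE, edgeR adjusted p = 3.43e-05), and Ppargc1b at 15 and 13.1 CPM, against 6.13 and 4.13 CPM (log2 fold change 1.44 ± 0.25, SE, edgeR adjusted p = 0.00322). In glycolysis Ldha, lactate dehydrogenase, and Slc2a1, a glucose transporter, were higher by 1.36 and 0.96, and Pfkfb4 was lower by 0.50, on the log2 scale. Of 19 carriers and related genes, Coq5, of ubiquinone synthesis, rose by 0.63 and Ucp2, an inner membrane carrier, fell by 0.57 on that scale. Of 33 other assembly factors none passed (edgeR, 4 at an unadjusted p under 0.05, and 1 by DESeq2), and of 76 mitochondrial ribosomal proteins Mrpl12 alone was higher, by 0.54 (edgeR adjusted p = 0.0296).

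Age went with lower levels of the members, few of which passed. In WT cells at 10 weeks against 4 weeks, none of the 86 passed (edgeR; 10 at an unadjusted p under 0.05, and 0 by DESeq2), while 1.4% of all tested genes were higher and 0.706% lower at the adjusted threshold. The share of all tested genes at an unadjusted p under 0.05 is not given here for any comparison. The median log2 fold change was -0.18, with 81 of 86 members negative and 48 below without overlap, against 26.8% of all genes. In KO cells at 10 weeks against 4 weeks 2 members were lower and none higher (edgeR, DESeq2 called 6), with 4.83% of all genes lower and 4.89% higher, and the median was -0.21, with 77 negative and 52 below without overlap, against 27.9% of all genes. The summed level was 6229 and 6704 CPM at 10 weeks against 7211 and 7781 CPM at 4 weeks in KO, and 5950 and 6675 CPM at 10 weeks against 7269 and 6888 CPM at 4 weeks in WT. Every 10-week library was thus below every 4-week library of its genotype. No member passed the test of a difference in the age change between KO and WT (edgeR interaction test: 0 of 86 called, 0 at an unadjusted p under 0.05, 0 by DESeq2, 0.188% of all genes called).

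The members that fell in KO were Atp5g1 and Cox7a2. Atp5g1 was at 53.0 and 59.6 CPM at 10 weeks, against 78.1 and 78.9 CPM at 4 weeks in KO (log2 fold change -0.48 ± 0.11, SE, edgeR adjusted p = 0.0154), and 55.1 and 58.7 CPM, against 67.6 and 64.2 CPM in WT. Cox7a2 was at 45.0 and 48.1 CPM at 10 weeks, against 60.0 and 68.2 CPM at 4 weeks in KO (log2 fold change -0.46 ± 0.12, SE, edgeR adjusted p = 0.0357), and 43.0 and 44.8 CPM, against 48.3 and 55.6 CPM in WT. Cox7a2 and Atp5g1 were lower at 10 weeks in both genotypes without overlap. Neither call outlasted the loss of each library in turn: Cox7a2 passed in none of the 4 fits with a KO library left out, and Atp5g1 only without KO 10-week replicate 2. Cox7a2 also missed the threshold when the 10-week libraries in conflict were exchanged (edgeR adjusted p = 0.0503). In WT the smallest p was that of Ndufs6, an accessory subunit near the NADH-oxidizing module, with a log2 fold change of -0.55 ± 0.17 (SE, edgeR adjusted p = 0.106). By complex the medians in KO were -0.17 for complex I, -0.20 for II, -0.18 for III, -0.28 for IV and -0.26 for V, and in WT -0.19, -0.11, -0.19, -0.22 and -0.16.

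Other measures moved with age. Within title series 58 the medians were -0.09 and -0.20 for KO 10-week replicate 2 against the 4-week KO libraries and -0.14 and -0.04 for WT 10-week replicate 2 against the 4-week WT libraries, and replicate 1 of both 10-week groups, from series 10, gave -0.34 to -0.21. Alveolar macrophage markers summed to 23550 to 24159 CPM at 10 weeks, against 26848 to 29552 CPM at 4 weeks in WT. In KO they summed to 29269 to 32976 CPM at 10 weeks, against 31164 to 43388 CPM at 4 weeks, and the ages overlapped. Erythroid markers summed to 17.2 to 31.6 CPM at 10 weeks, against 258 to 562 CPM at 4 weeks in KO, and to 51.7 to 56.9 CPM at 10 weeks, against 1039 to 2564 CPM at 4 weeks in WT. Lung epithelial markers summed to 293 to 407 CPM at 10 weeks, against 57.1 to 216 CPM at 4 weeks in KO, and to 179 to 221 CPM at 10 weeks, against 44.1 to 88.5 CPM at 4 weeks in WT. T cell markers, nearly all Cd2, summed to 203 to 235 CPM at 10 weeks, against 129.7 to 138 CPM at 4 weeks in KO, and to 238 to 252 CPM at 10 weeks, against 184 to 208 CPM at 4 weeks in WT. The 10-week libraries of series 58 were also those with Xist, which no 4-week library held above 0.885 CPM, so that age and sex cannot be told apart within that series. Among genes with transcripts under 1000 bases, the 52 members had medians of -0.23 in KO and -0.21 in WT, and the 773 other genes -0.17 and -0.17. With the title series as a block, Atp5g1 passed in KO (edgeR adjusted p = 0.0193) and Cox7a2 did not (edgeR adjusted p = 0.0564). The part of these cells, of sex and of transcript length in the age difference was not tested. Of 76 mitochondrial ribosomal proteins 5 were lower at 10 weeks in KO, among them Mrpl30 (log2 fold change -0.50, edgeR adjusted p = 0.0254) and Mrpl12 (log2 fold change -0.52, edgeR adjusted p = 0.0390), and of 20 genes of glycolysis Aldoa, aldolase A, was lower (-0.55, edgeR adjusted p = 0.0420). Among all tested genes 4.83% were lower in that comparison, near the shares of these lists.

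Between genotypes no member passed at either age. In KO against WT cells at 10 weeks, 0 of 86 were called by edgeR and 0 by DESeq2 (2 at an unadjusted p under 0.05), with 0.11% of all tested genes called. At 4 weeks it was 0 by both (3 at an unadjusted p under 0.05), with 0.667% of all genes called. The median member log2 fold change was 0.03 at 10 weeks and 0.05 at 4 weeks, against -0.01 over all genes in each. The summed level was 6229 and 6704 CPM in KO, against 5950 and 6675 CPM in WT at 10 weeks, and 7211 and 7781 CPM in KO, against 7269 and 6888 CPM in WT at 4 weeks, so that the genotypes overlapped at both ages. At 10 weeks lung epithelial markers summed to 293 to 407 CPM in KO, against 179 to 221 CPM in WT. Dendritic cell markers summed to 20.4 to 23.1 CPM in KO, against 47.9 to 71.0 CPM in WT. Erythroid markers summed to 17.2 to 31.6 CPM, against 51.7 to 56.9 CPM, and alveolar macrophage markers to 29269 to 32976 CPM, against 23550 to 24159 CPM. At 4 weeks alveolar macrophage markers summed to 31164 to 43388 CPM in KO, against 26848 to 29552 CPM in WT. Erythroid and dendritic cell markers were again lower in KO without overlap, and lung epithelial markers overlapped. The part of these cells was not tested. These values rest on the genotype labels, which Vdr itself does not separate at 10 weeks. Ndufs5 was lowest, at 15.6 and 7.59 CPM in KO, against 19.9 and 23.8 CPM in WT at 10 weeks (log2 fold change -0.87 ± 0.36, SE, edgeR adjusted p = 0.448). The 4-week libraries held 14.4 and 12.8 CPM of Ndufs5 in KO, against 13.1 and 26.6 CPM in WT, and the genotypes overlapped. Without a filter on low counts Ndufs5 did pass, at both ages (edgeR adjusted p = 8.02e-05 and 0.0423). At 4 weeks the smallest p were those of Cox7a2, 0.30 ± 0.12, Atp5g1, 0.25 ± 0.10, and Uqcr10, 0.44 ± 0.19 (log2 fold change ± SE, edgeR adjusted p = 0.356, 0.363 and 0.394). Uqcr10, a small subunit of complex III, was at 46.9 and 50.8 CPM in KO, against 36.5 and 35.8 CPM in WT. It passed when the fit held only the 4-week libraries (edgeR adjusted p = 0.0331).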

How the data were processed

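The authors deposited 2 tables of the whole series, raw read counts per gene and a normalized table of log2 values. TopHat2, edgeR and mm9 are named, without versions, per the submitters' processing notes, and neither the counter nor its annotation or strand setting is named there. The deposited log2 values equal log2(CPM + 1) recomputed from the deposited counts with totals over the listed genes (tolerance 1e-09), in the group of each genotype label, and cover the 10631 genes of that table.

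The counts were tested here with the quasi-likelihood test of edgeR 4.0.16 (R 4.3.3) across 12748 genes kept by filterByExpr (count minimum 10, total 15), with TMM scaling, the 12 libraries in 1 fit with 6 residual degrees of freedom, and Benjamini-Hochberg adjusted p under 0.05 over all genes. CPM use TMM-scaled totals. Total counts ranged from 10409572 to 23233674, and p-values cover the spread between libraries. The script was tested on simulated data. Lengths and overlaps came from GENCODE on GRCm38 and promoters from RefSeq on GRCm38.p6, both matched by symbol, and differ in build from the deposited data. Alternatives were DESeq2 1.42.0, other scalings and filters, blocks, left-out libraries and limma 3.58.1 on the log2 table.

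The members and lists were chosen with earlier results of these data known. Named were members called (where over 6, the 2 per complex and direction with the smallest p), the 2 most abundant per complex, isoform families, the largest and smallest fold changes per complex in the culture comparisons, and up to 4 called genes per list. Replicate numbers were not used as pairs: the labels tie only replicate 1 of both cultures to a shared name. Some members that the rule names are not reported here.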

Additional observations from a re-analysis of the deposited data

How the results depend on the processing

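The count of members called depended on several settings. The share of all tested genes called under each setting is not given here, so these counts are no measure of excess over all genes. Between KO and WT it was 1 without a filter on low counts at 10 and at 4 weeks (Ndufs5 both times) and 1 at 4 weeks in a fit of those groups alone (Uqcr10). With age in WT it was 2 without a filter and 1 when the 10-week libraries in conflict were exchanged. With age in KO it was 6 by DESeq2, 12 without a filter, 6 in a fit of those groups alone, 1 with the title series as a replicate block, 1 after the exchange (Atp5g1 both times, with Cox7a2 lost) and 4 by limma on the deposited log2 table. With vitamin D3 it was 10 without a filter and 2 in a fit of the cultures alone, where Cox5a and Uqcrfs1 lost their calls. In culture against fresh WT it was 25 with library totals and 25 by limma on the log2 table. In both of these the member median stayed above that of all genes, a gap that a change of scaling alone hardly alters. The values of Atp5b and Ndufaf5 changed sign, to -0.16 and -0.18 with library totals and to -0.16 and -0.16 in the log2 table. The value of Uqcrfs1 was 0.084 against 10-week WT alone, and leaving out 1 library gave -0.15 (without untreated replicate 2) to 0.0076 (without untreated replicate 1). With vitamin D3, leaving out 1 library gave -0.21 to 0.037 for Atp5s, -0.31 to 0.11 for Ndufa6 and -0.095 to 0.032 for Sdha. The cause was not tested, beyond what the scaling and the fewer samples themselves change. Leaving out 1 library at a time gave 0 to 1 members with age in KO, 1 to 9 with vitamin D3 and 37 to 71 in culture, and 0 in the genotype, interaction and WT age comparisons.

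Same-numbered libraries were not treated as pairs. Replicate 1 of both cultures shares a name, and at 10 weeks same-numbered libraries share a title series and the presence or absence of Xist, but no label ties them to 1 animal, litter or day. Deviations of same-numbered libraries correlated at 0.12 at 10 weeks and -0.12 at 4 weeks. In culture, libraries were matched by title series, vitamin D3 replicate 3 with untreated replicate 2, and the correlation was 0.27. The replicate block used the same matching in culture. With a replicate block, 0 members were called between KO and WT at 10 weeks, 0 at 4 weeks (0 also with crossed numbers, an alternative chosen after seeing the data), 6 with vitamin D3 (Uqcrq and Cox7a2 added) and 66 in culture against fresh WT with the title series as the block. Each group held 2 libraries, so that small changes of single genes were not detectable with this spread, and Cox7a1, Ndufs5 and other members under about 30 CPM carried the widest errors.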

Other observations

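The members also moved together between libraries of 1 group. Between the untreated cultures the median log2 difference was 0.28 for replicate 2 against replicate 1, with 83 of 86 members higher. It was -0.10 for vitamin D3 replicate 3 against replicate 1, with 68 members lower, 0.14 and 0.16 for replicate 2 against replicate 1 of the 10-week KO and WT groups, with 67 and 78 higher, and 0.11 and -0.08 at 4 weeks in KO and WT, with 68 and 21 higher. The medians over all tested genes in these 6 pairs were between -0.01 and 0.01. In both culture groups and both 10-week groups the replicates came from different title series. The 10-week replicates also differed in the presence of Xist, and the part of series and sex in these differences was not tested. The difference between the untreated cultures exceeded in size the member medians of 0.21 for vitamin D3, and of -0.21 and -0.18 for age in KO and WT. The widest difference of a single member within a group was that of Ndufs5 in 10-week KO, at 15.6 and 7.59 CPM.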
